A study of Mus musculus with 12 samples.

Results

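The endoplasmic reticulum (ER) folds most of the proteins that hepatocytes secrete, with the help of chaperones, lectins and disulfide isomerases, and returns misfolded proteins to the cytosol for degradation. When unfolded protein accumulates, the ER membrane sensors IRE1, ATF6 and PERK raise the genes of this machinery through the transcription factors XBP1s and ATF6, while PERK, as other kinases do when amino acids are short, phosphorylates eIF2alpha and so raises translation of ATF4. ATF4 in turn induces genes of amino acid synthesis and of the stress response such as Asns, Trib3 and Chac1, and this second branch is known as the integrated stress response. In mouse liver both branches respond to feeding, obesity and food restriction.

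The 41 genes described here are a list of named genes of these branches, found in the count table by the Ensembl identifiers that GENCODE M21 (mm10) gives their symbols. They make up 41 of the 46078 genes in the table, with 28 ER members (chaperones, lectins, isomerases, translocon, degradation, sensors) and 13 members of the ATF4 branch, Atf4 itself included. Of these, 40 were among the 13054 genes that passed a filter on low counts and were tested, and Phgdh did not pass it.

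Liver RNA was sequenced from 12 male C57BL/6 mice (C57BL/6J in the study's methods) with diet-induced obesity, 21 weeks old by the labels, 4 in each of 3 groups. VSG mice had a vertical sleeve gastrectomy, in which most of the stomach is removed. Sham-WM mice had sham surgery and then so little food that their weight matched that of the VSG group, and Sham-Ad lib mice had sham surgery and unrestricted food. In all 3 groups the mice had been fed a high-fat diet and went back to it after the laparotomy, were housed singly, received isoflurane, xylocaine, co-amoxiclav, buprenorphine and meloxicam around surgery, passed through a gel diet, and were killed on day 16 after 5 h without food. No library of an unoperated mouse was analysed here, so the effect of laparotomy itself is in every group. The design sets each treatment against Sham-Ad lib, and compares the VSG mice with Sham-WM mice at matched weight.

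Libraries held between 15122520 and 19384076 counts on genes, of which albumin took 4.89% to 12.2%. Levels are given as counts per 1000000 counts of the library (CPM) after TMM scaling. Log2 fold changes come with their standard errors (SE) from edgeR's quasi-likelihood test, with p-values adjusted over all 13054 genes. The animal number common to a library's name and a sample title (4F, for example) decided its group, but a second label field ties titles to libraries of other animals. With libraries grouped by that field, edgeR called 0 of the 40 members in each of the 3 comparisons, with 1 member at an unadjusted p under 0.05 in VSG against Sham-Ad lib and 0 in the other comparisons, and DESeq2 was not run on that grouping. Every direction below therefore rests on the animal numbers. Calls over all genes under the grouping by the second field are not given here, so these counts are no result about the members alone. The S numbers that end the library names run in 1 unbroken block for each group, and the names do not say what they count. Any batch tied to these numbers cannot be told apart from the treatments.

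Hepatocyte markers were abundant in every library, with a summed level over 10 genes of 90071 to 136023 CPM in VSG, 132376 to 164591 CPM in Sham-WM and 114390 to 137125 CPM in Sham-Ad lib. The most abundant genes, albumin among them, weigh most in this sum. In VSG against Sham-WM, 5 of the 10 had log2 fold changes above 0, with a median of 0.02. With edgeR, Alb and Cps1 were lower and 0 of the 10 higher, beside 11.9% and 15.0% of all genes tested. Markers of immune cells moved with VSG. The summed level of 8 neutrophil markers was 29.9, 118, 365 and 865 CPM in VSG libraries 18F, 11F, 8F and 1F, against 1.35 to 18.1 CPM in Sham-Ad lib and 2.66 to 3.72 CPM in Sham-WM, where Ly6g was at 0. Summed levels of 10 B and plasma cell markers, none of them at 0 in any group, were 63.2 to 233 CPM in VSG, 15.3 to 40.8 CPM in Sham-Ad lib and 13.004 to 35.7 CPM in Sham-WM. The 6 Kupffer cell markers, again none at 0, summed to 389 to 1118 CPM, 113.5 to 376 CPM and 104.2 to 183 CPM in the same groups. In whole liver, fewer cells of a type and less RNA per cell cannot be told apart.

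Part of the ER chaperone set was higher in Sham-WM than in Sham-Ad lib. In Sham-WM against Sham-Ad lib, 5 of 28 ER members were higher and 0 lower, where 3.53% of all genes tested were higher and 3.45% lower. The 5 were the chaperones and co-factors Hspa5, Hyou1, Manf and Creld2 and the translocon-associated Ssr1, each by 1.47-fold to 2.26-fold. DESeq2 called 6 ER members higher (these and Syvn1, at 0.48 with an adjusted p of 0.0392) and 2 lower (Derl3 at -2.67 and Herpud1 at -0.61, adjusted p = 0.0195 and 0.0306), where it called 9.94% of all genes in either direction. After VSG none of the 28 was called against Sham-Ad lib, where only 0.467% of all genes tested were higher and 0.283% lower. Compared directly with Sham-WM, VSG livers had 10 ER members lower and 2 higher. Among all genes tested, 11.9% were lower and 15.0% higher in that comparison. The median log2 fold change of the 28 ER members was 0.07 in Sham-WM against Sham-Ad lib, -0.08 in VSG against Sham-Ad lib and -0.30 in VSG against Sham-WM, where the medians over all genes tested were 0, 0.03 and 0.03. The plot of fold changes shows every tested member in the 3 comparisons.

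**Figure D1:**
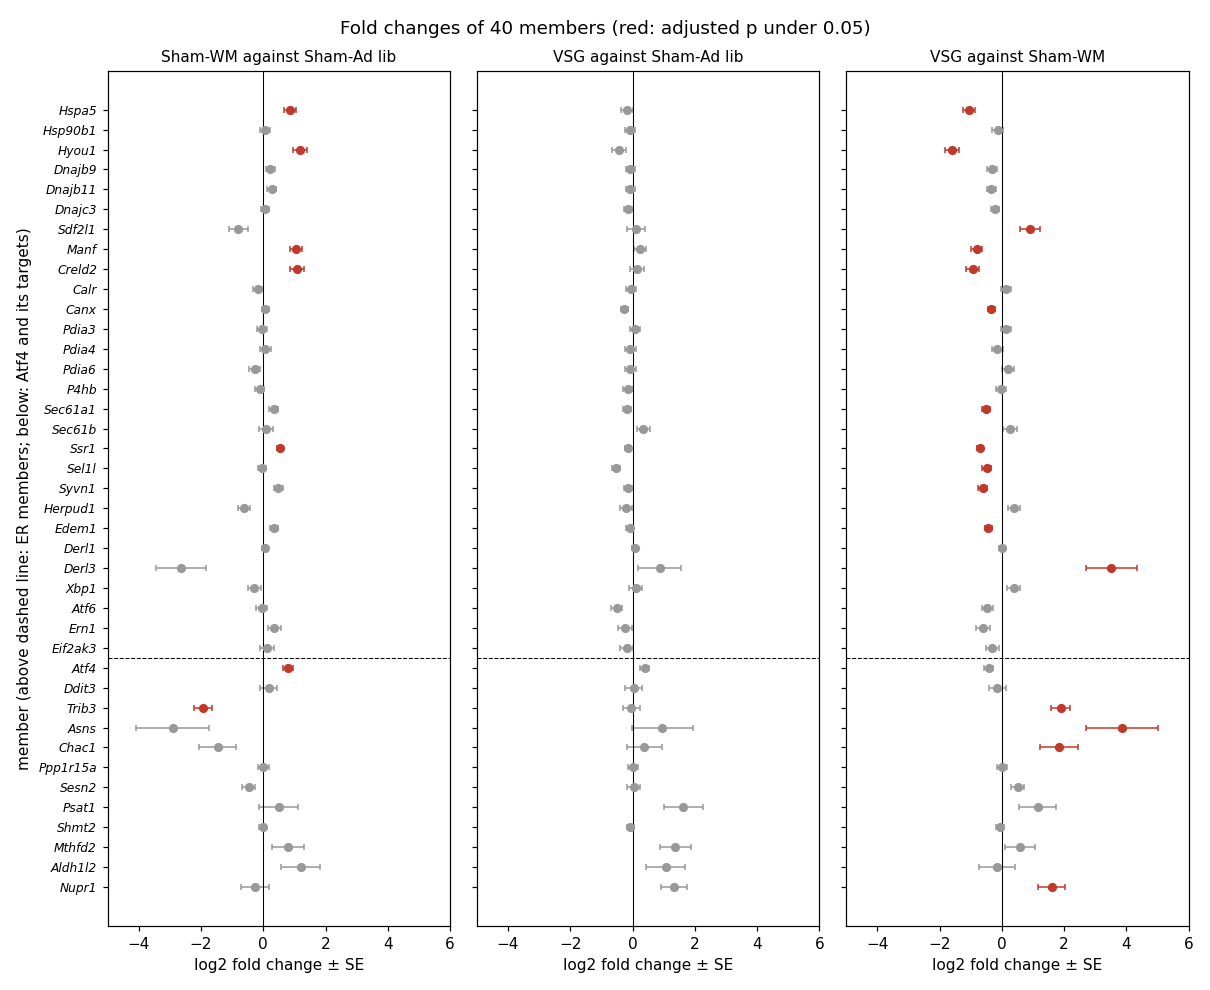
Log2 fold change with its SE (x axis) of the 40 tested members (y axis, ordered by role, ER members above the dashed line and the ATF4 branch below it) in the 3 comparisons, with members past an adjusted p of 0.05 in red. Red points are to the right of 0 for 5 ER members in Sham-WM against Sham-Ad lib and to the left of 0 for 10 ER members in VSG against Sham-WM, and no point is red in VSG against Sham-Ad lib.

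Hspa5 (ENSMUSG00000026864, chr2:34771970-34777547, plus strand of mm10) encodes BiP, the abundant Hsp70 chaperone of the ER lumen that also holds the stress sensors inactive. Its level was 521, 681, 449.7 and 406 CPM in Sham-Ad lib libraries 3F, 4F, 6F and 10F. In Sham-WM libraries 2F, 9F, 15F and 16F, kept in this order below, it was 982, 752, 900.2 and 1096 CPM, and in VSG libraries 1F, 8F, 11F and 18F it was 531, 416, 352 and 510.2 CPM. All 4 Sham-WM values lay above all 8 others, while the VSG and Sham-Ad lib values overlapped. Hspa5 was 1.81-fold higher in Sham-WM than in Sham-Ad lib (log2 fold change 0.86, SE 0.19, adjusted p = 0.0163, edgeR) and lower in VSG than in Sham-WM (-1.04, SE 0.19, adjusted p = 0.00253). Against Sham-Ad lib, its log2 fold change in VSG was -0.19 (SE 0.19, adjusted p = 0.564). The call in Sham-WM against Sham-Ad lib was lost without library 10F, 16F or 6F (adjusted p = 0.0593, 0.0583 and 0.0522), with the log2 fold change at 0.75, 0.77 and 0.80.

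Hyou1 (ENSMUSG00000032115, chr9:44379490-44392369, plus strand), an ER member of the Hsp110 family that exchanges the nucleotide of BiP, had the largest rise of the 5. In the same order of libraries, it had 88.5, 104.7, 78.5 and 63.5 CPM in Sham-Ad lib, 184, 146, 197 and 231 CPM in Sham-WM, and 79.0, 53.6, 39.8 and 76.8 CPM in VSG. No Sham-WM value overlapped either other group. The log2 fold change was 1.18 (SE 0.22, adjusted p = 0.00743, edgeR) in Sham-WM and -0.43 (SE 0.22, adjusted p = 0.248) in VSG, each against Sham-Ad lib. In VSG against Sham-WM it was -1.60 (SE 0.22, adjusted p = 0.000745), so that VSG livers held 0.329 of the Sham-WM level.

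**Figure D2:**
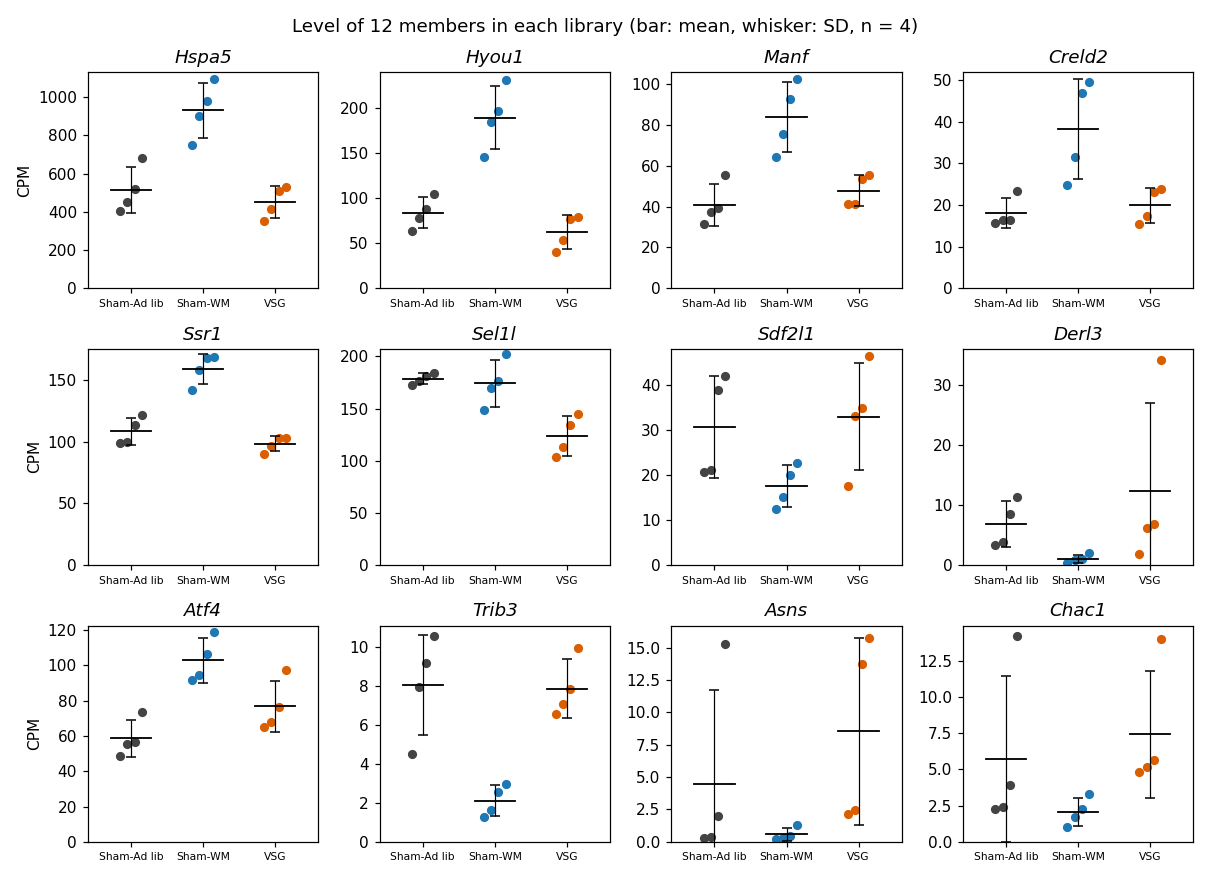
CPM (y axis, from 0) of 12 members in each library of the 3 groups (x axis), with points for libraries, a bar for the mean and whiskers for the SD (n = 4 libraries each), cut off at 0 where the SD exceeds the mean. Sham-WM stands above the other groups for Hspa5, Hyou1, Manf, Creld2 and Ssr1 and below them for Trib3, while for Asns, Derl3 and Chac1 the libraries of a group spread widely around the mean.

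Manf (ENSMUSG00000032575, chr9:106838312-106891979, minus strand) and Creld2 (ENSMUSG00000023272, chr15:88819646-88826683, plus strand) encode small ER proteins that are secreted under stress. Manf had 39.1, 55.4, 31.5 and 37.3 CPM in Sham-Ad lib, 93.0, 64.5, 75.6 and 102 CPM in Sham-WM and 55.6, 41.3, 41.2 and 53.3 CPM in VSG. Creld2 had 16.5, 23.3, 15.6 and 16.4 CPM in Sham-Ad lib, 46.9, 24.7, 31.5 and 49.6 CPM in Sham-WM and 23.2, 23.8, 15.3 and 17.3 CPM in VSG. For both genes every Sham-WM library was above every library of the other groups, although Creld2 in library 9F lay only just above. Sham-WM exceeded Sham-Ad lib by a log2 fold change of 1.04 for Manf (SE 0.19, adjusted p = 0.00654, edgeR) and 1.09 for Creld2 (SE 0.23, adjusted p = 0.0124). In VSG against Sham-WM the values were -0.81 for Manf (SE 0.19, adjusted p = 0.00836) and -0.94 for Creld2 (SE 0.22, adjusted p = 0.00996). Manf overlaps Dcaf1 on the opposite strand and Rbm15b on its own strand, with means of 517 and 276 counts against 1043.6 for Manf, and whether the counting used strand was not stated.

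The translocon carries nascent chains into the ER. Ssr1 (ENSMUSG00000021427, chr13:37966605-37994217, minus strand), a subunit of the translocon-associated protein complex, had 99.6, 121, 99.3 and 113.6 CPM in Sham-Ad lib, 159, 142, 168 and 168 CPM in Sham-WM and 103, 103, 96.9 and 90.0 CPM in VSG. The Sham-WM libraries were again apart from the rest, by a smaller fold but with little spread. Ssr1 was higher in Sham-WM than in Sham-Ad lib (log2 fold change 0.55, SE 0.10, adjusted p = 0.00701, edgeR) and lower in VSG than in Sham-WM (-0.70, SE 0.10, adjusted p = 0.00103). Sec61a1, the pore-forming subunit, was lower in VSG than in Sham-WM (-0.51, SE 0.14, adjusted p = 0.0166) at 123 ± 17.1 CPM against 175 ± 13.6 CPM (SD, n = 4 each), with 139 ± 23.5 CPM in Sham-Ad lib. Sec61b, a small subunit of the same channel, was not called in any comparison, at 55.5 ± 19.8 CPM in VSG, 46.1 ± 10.2 in Sham-WM and 43.5 ± 5.18 in Sham-Ad lib.

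Among the remaining lumenal chaperones, Hsp90b1 (GRP94), Dnajb9, Dnajb11 and Dnajc3 were called in no comparison by edgeR with all 12 libraries. Their log2 fold changes in VSG against Sham-WM ran from -0.34 for Dnajb11 (adjusted p = 0.0853) to -0.13 for Hsp90b1 (adjusted p = 0.592). With 1 library left out, Dnajb11 (-0.45, adjusted p = 0.0414) and Dnajc3 (-0.39, adjusted p = 0.0218) passed without 8F, and Dnajb9 (-0.44, adjusted p = 0.0252) passed without 9F. The 4 disulfide isomerases Pdia3, Pdia4, Pdia6 and P4hb were likewise not called, and their log2 fold changes stayed between -0.27 and 0.20 over the 3 comparisons. Of the lectin chaperones that hold glycoproteins, calreticulin (Calr) was not called and calnexin (Canx) was lower in VSG than in Sham-WM, at 343 ± 46.1 against 434 ± 11.7 CPM (SD, n = 4 each; log2 fold change -0.34, SE 0.11, adjusted p = 0.0399, edgeR). The adjusted p of Canx was above 0.05 in 9 of 12 fits that left out 1 library, with the 3 exceptions being 4F, 8F and 18F, and reached 0.0845 without 15F. Per base of transcript, the uncalled P4hb, Calr and Pdia3 were among the most abundant members, with 1622, 862 and 458 length-scaled transcripts per 1000000 (TPM) in Sham-Ad lib against 320.4 for Hspa5 and 30.5 for Hyou1.

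Sdf2l1, a subunit of the BiP co-chaperone complex, did not share the direction of Hspa5. It had 21.2, 39.0, 20.7 and 42.0 CPM in Sham-Ad lib, 22.8, 15.2, 12.4 and 20.1 CPM in Sham-WM and 33.1, 46.5, 34.9 and 17.6 CPM in VSG. The VSG and Sham-WM values overlapped through library 18F, and Sdf2l1 was higher in VSG than in Sham-WM by a log2 fold change of 0.91 (SE 0.31, adjusted p = 0.043, edgeR). The call was lost without libraries 11F, 15F, 16F, 1F, 8F or 9F (adjusted p = 0.0771, 0.12, 0.072, 0.0793, 0.123 and 0.0959), and with 2 RUVs factors of unwanted variation the value turned to -0.17.

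ER-associated degradation extracts misfolded proteins through an ubiquitin ligase at the ER membrane. Its core members Sel1l (the ligase's adaptor), Syvn1 (the ligase itself, HRD1) and Edem1 (a mannosidase-like protein that delivers glycoproteins to it) were lower in VSG than in Sham-WM, by log2 fold changes of -0.49, -0.61 and -0.43 (adjusted p = 0.0135, 0.0116 and 0.0173, edgeR). With 2 RUVs factors none of the 3 passed, at -0.26, -0.49 and -0.45 (adjusted p = 0.382, 0.20 and 0.0765). For Sel1l the VSG values of 113.5, 145, 103 and 134 CPM also lay below all 4 Sham-Ad lib values of 173 to 185 CPM. That difference had a log2 fold change of -0.53 (SE 0.13) and an adjusted p of 0.0567, and DESeq2 gave -0.55 with an adjusted p of 0.00359. Sham-WM libraries had 148 to 202 CPM of Sel1l, which spanned the Sham-Ad lib range. Syvn1 overlaps Mrpl49 on the opposite strand, with means of 573.1 counts for Mrpl49 and 1008.5 for Syvn1.

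Derl1, a channel component of the same pathway, stayed between log2 fold changes of 0.01 and 0.07, and Herpud1, which organises the ligase complex, had -0.61 in Sham-WM against Sham-Ad lib (SE 0.19, adjusted p = 0.078, edgeR) with no overlap of the groups, and passed 0.05 with DESeq2, with 2 RUVr or RUVs factors, in the fit of these 2 groups and without 11F or 18F (adjusted p = 0.0306, 0.0321, 0.0154, 0.0223, 0.0278 and 0.0421). Derl3 (ENSMUSG00000009092, chr10:75893413-75895941, plus strand) is a Derlin of secretory tissues. It had 3.91, 8.53, 3.35 and 11.4 CPM in Sham-Ad lib, 1.99, 0.870, 0.408 and 1.01 CPM in Sham-WM and 6.21, 34.3, 6.85 and 1.82 CPM in VSG. Every Sham-WM value was below every Sham-Ad lib value, and the VSG values spread widely, with 8F high and 18F inside the Sham-WM range. Derl3 was higher in VSG than in Sham-WM (log2 fold change 3.52, SE 0.81, adjusted p = 0.0078, edgeR), at -2.65 (SE 0.80, adjusted p = 0.0648) in Sham-WM and 0.87 (SE 0.69, adjusted p = 0.453) in VSG against Sham-Ad lib. Without libraries 1F and 8F, which held the highest neutrophil marker sums, the value in VSG against Sham-WM was 1.94 (adjusted p = 0.0661), and it was 2.18 (adjusted p = 0.0195) without 8F alone. In VSG libraries 1F, 8F, 11F and 18F the B and plasma cell marker sum was 233, 136, 101 and 63.2 CPM. Derl3 in these libraries was 6.21, 34.3, 6.85 and 1.82 CPM. The marker sum was 13.004 to 35.7 CPM in Sham-WM and 15.3 to 40.8 CPM in Sham-Ad lib. The part of these cells in the result was not tested.

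Promoters of several of these genes carry the ER stress response element (ERSE), bound by NF-Y together with ATF6 or XBP1s. RefSeq windows of GRCm38.p6 (mm10), from 250 bases before to 50 bases after the transcription start, were matched for 23 of the 28 ER members and 12 of the 13 ATF4 branch members. No window was matched for Hyou1, Manf, Sec61a1, Derl1, Atf6 and Aldh1l2. The ERSE letters CCAAT, any 9 bases and CCACG, searched on both strands, were in the windows of 9 ER members (Hspa5, Hsp90b1, Dnajc3, Creld2, Calr, Canx, Pdia6, Syvn1 and Derl3) and of 0 ATF4 branch members, against 0.137% of 27025 genes with a window. The ERSE-II letters ATTGG, any 1 base and CCACG were in Dnajb11 and Herpud1, against 0.0444% of genes. Shown here are stretches around ERSE of the 5 members that both hold it and differed between VSG and Sham-WM, printed 5′ to 3′ on the gene's strand with the ERSE in capitals.

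Hspa5 (chr2:34771945-34772089, plus strand): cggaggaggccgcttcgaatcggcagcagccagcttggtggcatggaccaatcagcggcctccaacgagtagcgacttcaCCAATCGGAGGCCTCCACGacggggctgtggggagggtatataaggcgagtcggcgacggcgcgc
Creld2 (chr15:88819440-88819598, plus strand): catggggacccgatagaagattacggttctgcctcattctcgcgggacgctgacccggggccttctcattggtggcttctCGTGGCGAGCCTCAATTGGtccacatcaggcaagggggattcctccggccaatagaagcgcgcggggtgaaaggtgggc
Syvn1 (chr19:6046452-6046575, plus strand): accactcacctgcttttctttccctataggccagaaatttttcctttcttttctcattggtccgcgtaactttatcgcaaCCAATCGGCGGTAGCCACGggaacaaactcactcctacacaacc
Canx (chr11:50325740-50325898, minus strand): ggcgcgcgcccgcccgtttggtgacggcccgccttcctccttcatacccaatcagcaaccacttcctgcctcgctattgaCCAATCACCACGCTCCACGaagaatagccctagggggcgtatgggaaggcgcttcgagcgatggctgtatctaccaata
Derl3 (chr10:75893162-75893320, plus strand): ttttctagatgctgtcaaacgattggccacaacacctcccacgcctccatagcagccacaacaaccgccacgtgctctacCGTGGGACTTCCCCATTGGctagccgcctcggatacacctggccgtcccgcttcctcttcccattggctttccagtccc

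Positions are counted from the RefSeq start, which need not be the GENCODE gene start given above. The element began 65 bases before the start in Hspa5, 126 in Creld2, 44 in Syvn1, 145 in Canx and 156 in Derl3, and in Creld2 and Derl3 it was on the opposite strand. The letters did not separate members by response. Of the 9 members with ERSE, Hspa5, Creld2, Syvn1 and Canx were lower in VSG than in Sham-WM, Derl3 was higher, and Hsp90b1, which had 2 such elements, Dnajc3, Calr and Pdia6 were not called. Among all tested genes with a window, ERSE was in 8 of the 1203 genes that were lower in VSG than in Sham-WM (0.665%), 4 of them members, and in 17 of 10114 genes in all (0.168%). These shares are descriptions of letters in a window and were not tested.

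**Figure D3:**
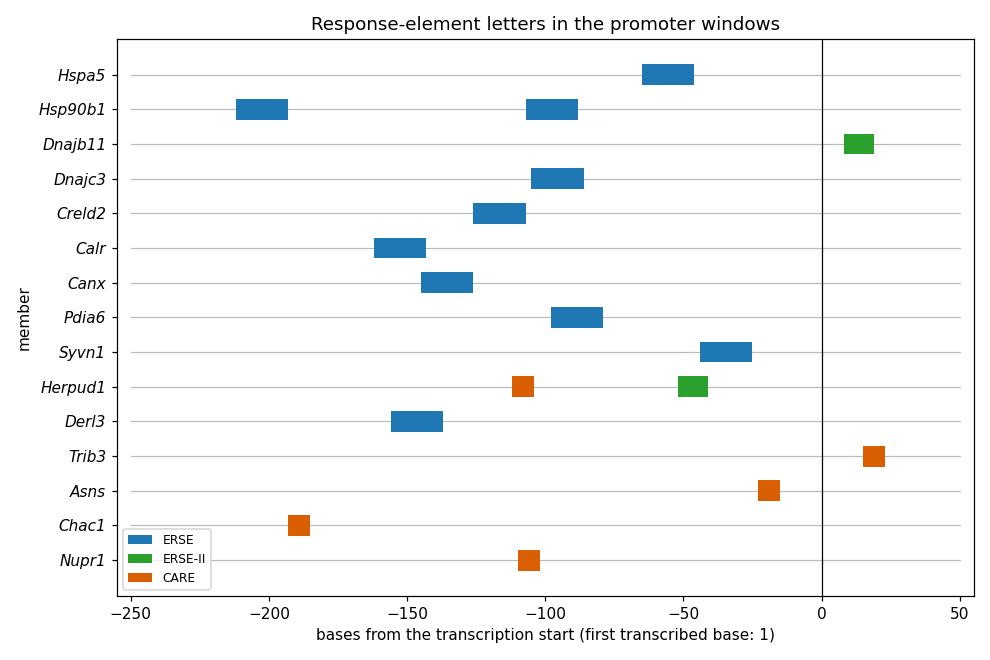
Position of the ERSE, ERSE-II and CARE letters (coloured bars, x axis in bases from the transcription start) in the promoter windows of the 15 members with any of them (y axis). ERSE and ERSE-II bars belong to ER members, and the CARE bars to Herpud1, Trib3, Asns, Chac1 and Nupr1.

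The sensors and their transcription factors were not called at the RNA level in any comparison by edgeR with all 12 libraries. Xbp1 (ENSMUSG00000020484, chr11:5520659-5525893, plus strand), whose mRNA IRE1 splices, had 203, 234, 175 and 332 CPM in Sham-Ad lib, 189.9, 254, 184 and 147 CPM in Sham-WM and 249, 291, 271 and 201 CPM in VSG, and all groups overlapped. Its log2 fold change was 0.10 (SE 0.21, adjusted p = 0.797, edgeR) in VSG and -0.29 (SE 0.21, adjusted p = 0.465) in Sham-WM against Sham-Ad lib, and 0.39 (SE 0.21, adjusted p = 0.177) in VSG against Sham-WM. Counts per gene do not separate spliced from unspliced Xbp1. Atf6 had 59.9, 75.1, 42.9 and 78.1 CPM in VSG, all below the lowest Sham-Ad lib value of 79.0 CPM, with a log2 fold change of -0.51 (SE 0.18, adjusted p = 0.115). Ern1, which encodes IRE1alpha, had -0.60 (SE 0.22, adjusted p = 0.0575; 0.0357 with DESeq2) in VSG against Sham-WM, and Eif2ak3, which encodes PERK, had -0.30 (SE 0.21, adjusted p = 0.311).

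Within the ATF4 branch, Atf4 and its target Trib3 differed in opposite directions between Sham-WM and Sham-Ad lib. In Sham-WM against Sham-Ad lib, 1 of the 12 tested members was higher (Atf4) and 1 lower (Trib3), beside 3.53% and 3.45% of all genes. In VSG against Sham-WM, 4 were higher (Trib3, Asns, Chac1 and Nupr1) and 0 lower, beside 15.0% and 11.9% of all genes. DESeq2 added Phgdh as higher and Atf4 as lower there, and its own share of all genes called in that comparison is not given here. In VSG against Sham-Ad lib, edgeR called 0 of the 12, beside 0.467% of all genes higher and 0.283% lower. The median log2 fold change of the 12 was -0.01, 0.54 and 0.38 in these comparisons, beside the medians over all genes tested of 0, 0.03 and 0.03. The ER members had medians of 0.07, -0.30 and -0.08, and the difference between the branches was not tested.

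Atf4 itself (ENSMUSG00000042406, chr15:80255184-80257541, plus strand) had 56.8, 55.7, 48.5 and 73.7 CPM in Sham-Ad lib, 94.3, 119, 106.7 and 91.5 CPM in Sham-WM and 76.6, 67.9, 97.2 and 65.3 CPM in VSG. Sham-WM lay wholly above Sham-Ad lib, and VSG lay between and overlapped both. The log2 fold change was 0.81 in Sham-WM (SE 0.16, adjusted p = 0.00829, edgeR) and 0.39 in VSG (SE 0.15, adjusted p = 0.156), each against Sham-Ad lib. In VSG against Sham-WM it was -0.42 (SE 0.15, adjusted p = 0.0572), and DESeq2 gave -0.45 with an adjusted p of 0.025. ATF4 is controlled mainly through translation, which RNA counts do not measure.

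Trib3 (ENSMUSG00000032715, chr2:152337422-152344032, minus strand), a pseudokinase that ATF4 induces and that dampens insulin signalling through AKT, had the most significant change of the branch. It had 9.15, 7.94, 10.5 and 4.52 CPM in Sham-Ad lib, 2.55, 2.97, 1.275 and 1.63 CPM in Sham-WM and 7.83, 6.54, 7.08 and 9.95 CPM in VSG. Every Sham-WM library was below every other library. Trib3 fell by 1.93 on the log2 scale in Sham-WM against Sham-Ad lib (SE 0.30, adjusted p = 0.00259, edgeR) and was 3.71-fold higher in VSG than in Sham-WM (log2 fold change 1.89, SE 0.30, adjusted p = 0.00136). Between VSG and Sham-Ad lib the log2 fold change was -0.04 (SE 0.28, adjusted p = 0.946). Both calls held in all 12 fits that left out 1 library.

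**Figure D4:**
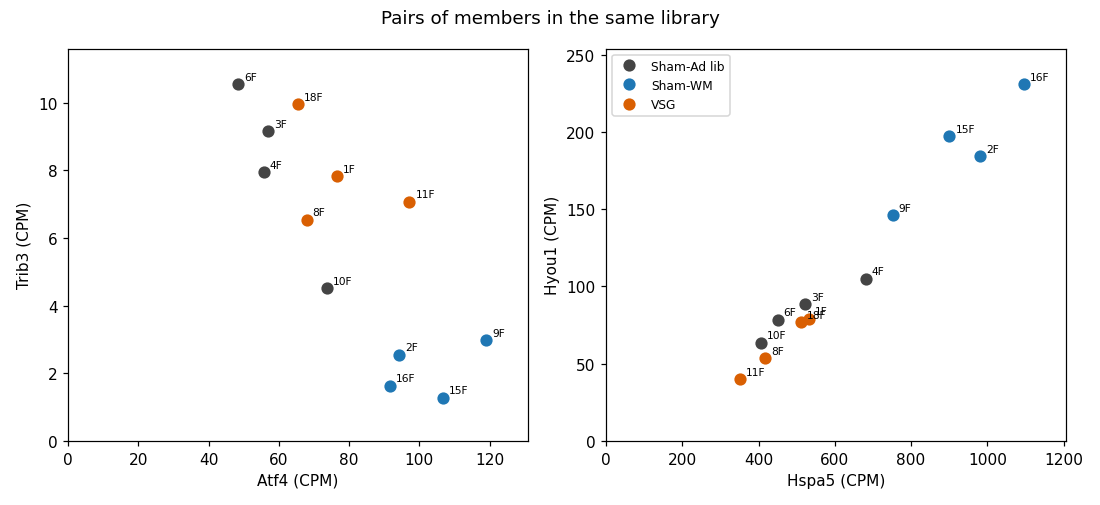
Levels in CPM of Trib3 against Atf4 (left) and of Hyou1 against Hspa5 (right) in the 12 libraries, coloured by group and marked with the animal number. The Sham-WM libraries combine the lowest Trib3 (1.275 to 2.97 CPM) with 91.5 to 119 CPM of Atf4, and they hold the highest Hspa5 and Hyou1.

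Asns (ENSMUSG00000029752, chr6:7675169-7693254, minus strand), asparagine synthetase, varied widely within Sham-Ad lib and VSG. Its level was 0.391, 1.99, 0.270 and 15.3 CPM in Sham-Ad lib, 1.32, 0.461, 0.255 and 0.281 CPM in Sham-WM and 13.7, 15.8, 2.49 and 2.16 CPM in VSG. The 4 VSG values were above the 4 Sham-WM values, and Sham-Ad lib spanned both groups because of library 10F. In VSG against Sham-WM the log2 fold change was 3.86 (SE 1.17, adjusted p = 0.0286, edgeR). Against Sham-Ad lib it was 0.96 (SE 0.98, adjusted p = 0.569) in VSG and -2.91 (SE 1.17, adjusted p = 0.165) in Sham-WM, and without 10F these values were 3.26 (adjusted p = 0.0923) and -0.60 (adjusted p = 0.811). With other single libraries left out, the value in VSG against Sham-Ad lib was lowest at 0.45 without 8F, and it was 0.63, 0.56 and 0.55 without 1F, 3F and 6F. It turned to -0.99 without both 1F and 8F (adjusted p = 0.677) and to -1.24 with 2 RUVs factors (adjusted p = 0.812). The call between VSG and Sham-WM was lost without 15F, 16F, 1F, 8F or 9F (adjusted p = 0.0782, 0.0779, 0.064, 0.0598 and 0.0652).

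Chac1 (ENSMUSG00000027313, chr2:119351229-119354381, plus strand), which degrades glutathione, had 3.91, 14.2, 2.38 and 2.26 CPM in Sham-Ad lib, 2.29, 3.28, 1.68 and 1.01 CPM in Sham-WM and 4.84, 5.67, 5.20 and 14.0 CPM in VSG. VSG and Sham-WM did not overlap (log2 fold change 1.84, SE 0.60, adjusted p = 0.0367, edgeR), but the call was lost without 15F, 16F, 18F or 2F (adjusted p = 0.0921, 0.10, 0.103 and 0.0654). Nupr1 (ENSMUSG00000030717, chr7:126623249-126630861, minus strand), a small stress-induced nuclear protein, had 1.00, 1.99, 0.757 and 1.13 CPM in Sham-Ad lib, 1.32, 0.563, 1.33 and 0.844 CPM in Sham-WM and 4.54, 4.19, 2.26 and 1.31 CPM in VSG. Library 18F was within the range of both sham groups. The log2 fold change was 1.60 in VSG against Sham-WM (SE 0.43, adjusted p = 0.017, edgeR) and 1.33 against Sham-Ad lib (SE 0.42, adjusted p = 0.0944), and the first was lost without 16F or 1F (adjusted p = 0.0509 and 0.0541).

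The C/EBP-ATF response element (CARE) is the composite site through which ATF4 acts. Its letters TGATG, any 1 base and AA, searched on both strands, were in the windows of Trib3, Asns, Chac1 and Nupr1 and of no other ATF4 branch member with a window, and also in that of Herpud1. The letters were in 4.51% of genes with a window, in 48 of the 1532 genes that were higher in VSG than in Sham-WM (3.13%) and in 278 of the 10114 tested genes with a window (2.75%). The stretches of the 4 members are shown because these same 4 were higher in VSG than in Sham-WM, with CARE in capitals.

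Trib3 (chr2:152344039-152344126, minus strand): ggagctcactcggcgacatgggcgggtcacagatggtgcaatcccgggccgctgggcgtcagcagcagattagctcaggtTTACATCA
Asns (chr6:7693210-7693312, minus strand): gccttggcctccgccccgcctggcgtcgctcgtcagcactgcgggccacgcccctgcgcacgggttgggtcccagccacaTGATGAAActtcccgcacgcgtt
Chac1 (chr2:119350992-119351116, plus strand): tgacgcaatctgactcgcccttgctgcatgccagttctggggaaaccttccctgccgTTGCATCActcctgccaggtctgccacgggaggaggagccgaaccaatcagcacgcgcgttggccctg
Nupr1 (chr7:126625513-126625660, minus strand): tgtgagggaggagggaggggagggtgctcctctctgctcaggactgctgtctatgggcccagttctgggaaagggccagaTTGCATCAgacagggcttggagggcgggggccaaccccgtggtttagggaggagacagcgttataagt

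CARE began 15 bases into the transcript of Trib3, and 23, 193 and 110 bases before the start of Asns, Chac1 and Nupr1. In Trib3, Chac1 and Nupr1 it was on the opposite strand. In Sham-WM against Sham-Ad lib, only Trib3 of the 4 was called. Herpud1, which also holds the letters, was not called in VSG against Sham-WM (log2 fold change 0.40, SE 0.19, adjusted p = 0.144, edgeR). Whether the letters go with the calls was not tested.

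Ddit3 (ENSMUSG00000025408, chr10:127290774-127296288, plus strand), which encodes the pro-apoptotic factor CHOP, did not separate the groups. It had 4.69, 5.15, 5.68 and 5.02 CPM in Sham-Ad lib, 7.85, 2.87, 5.10 and 7.43 CPM in Sham-WM and 5.50, 4.34, 7.08 and 4.27 CPM in VSG, so that all groups overlapped. The log2 fold changes were 0.04 in VSG and 0.18 in Sham-WM against Sham-Ad lib and -0.14 in VSG against Sham-WM (SE 0.27 and adjusted p of at least 0.731 in each, edgeR). Ddit3 overlaps Mars on the opposite strand, whose mean was 950 counts against 96.1 for Ddit3. Ppp1r15a, the eIF2alpha phosphatase subunit GADD34, had 9.00 ± 1.37 CPM in VSG, 8.96 ± 1.97 in Sham-WM and 8.96 ± 0.684 in Sham-Ad lib (SD, n = 4 each). Sesn2, a stress-induced regulator of mTORC1, had 10.4 ± 2.29, 7.37 ± 1.77 and 10.1 ± 2.02 CPM in the same order. Neither was called.

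ATF4 also drives serine synthesis and mitochondrial one-carbon enzymes. Psat1, Mthfd2 and Aldh1l2 were low in these livers, with means of 0.351 to 2.23 CPM, and were not called. Their highest values were in VSG libraries 1F and 8F, with 3.11 and 3.98 CPM for Psat1, 2.75 and 2.71 CPM for Mthfd2, and 1.53 CPM for Aldh1l2 in 8F, where Sham-Ad lib reached 1.13, 1.29 and 0.644 CPM and Sham-WM 1.89, 1.38 and 1.08 CPM. For Aldh1l2 the Sham-WM mean of 0.815 CPM was above the VSG mean of 0.716 CPM, and 1F held 0.896 CPM. Phgdh, the first enzyme of serine synthesis, had 42 and 37 counts in 1F and 8F, and 0 to 9 counts in the other 10 libraries. Shmt2, the mitochondrial serine hydroxymethyltransferase, had 244 ± 24.9 CPM in VSG, 252 ± 27.0 in Sham-WM and 256 ± 19.8 in Sham-Ad lib (SD, n = 4 each) and was not called. In the same 2 libraries Asns and Nupr1 were highest among VSG mice and the neutrophil markers summed to 865 and 365 CPM, and the part of these cells in the result was not tested.

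Without libraries 1F and 8F, edgeR called 10 members in VSG against Sham-WM, 9 ER members that were lower and Trib3, which was higher. Over all genes tested in that fit, 5.96% were lower and 7.19% higher. The 9 were Hspa5, Hyou1, Manf, Creld2, Sec61a1, Ssr1, Sel1l and Edem1, and Dnajc3, which was not called with all 12 libraries. Log2 fold changes were -1.14 for Hspa5, -1.72 for Hyou1 and 1.98 for Trib3 (adjusted p = 0.0164, 0.00682 and 0.00912, edgeR). For Asns, Nupr1 and Chac1 they were 1.94, 0.76 and 2.19 (adjusted p = 0.312, 0.266 and 0.056). The heat map shows these libraries beside the others.

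**Figure D5:**
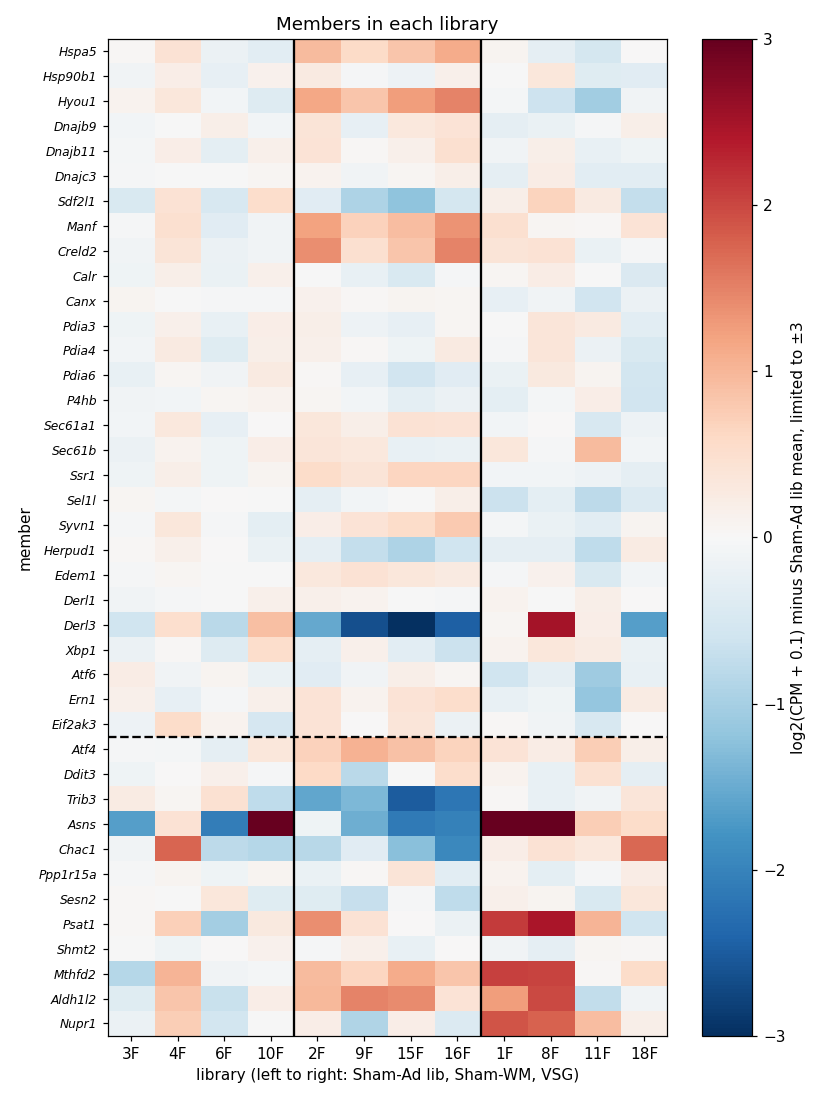
Log2(CPM + 0.1) of the 40 tested members (y axis) in each library (x axis, groups separated by lines) as the difference from the Sham-Ad lib mean, with colours limited to ±3. The Sham-WM columns are red for Hspa5, Hyou1, Manf, Creld2 and Atf4 and blue for Trib3 and Derl3, and columns 1F and 8F are red for Asns, Psat1, Mthfd2 and Nupr1.

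In VSG against Sham-Ad lib no member was called. With edgeR, 0 of 40 members passed an adjusted p of 0.05, where 0.467% of all genes were higher and 0.283% lower, and 7 members had an unadjusted p under 0.05, where 24.1% of all genes had one. DESeq2 called 2 members, Sel1l lower and Nupr1 higher (log2 fold change 1.32, adjusted p = 0.0413), where it called 3.32% of all genes lower and 5.10% higher. The 4 values of the groups did not overlap for 3 of 28 ER members (Canx, Sel1l and Atf6, all lower in VSG) and 0 of 12 ATF4 branch members, against 9.21% of all genes. In Sham-WM against Sham-Ad lib the groups did not overlap for 8 and 2 members, against 17.6% of all genes, and in VSG against Sham-WM for 10 and 3, against 26.2%.

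Counts for related genes outside the members are read beside the same shares of all genes, 3.53% higher and 3.45% lower in Sham-WM against Sham-Ad lib and 15.0% higher and 11.9% lower in VSG against Sham-WM. Of 29 other ER folding genes, 4 were higher and 0 lower in Sham-WM against Sham-Ad lib, and 2 were higher and 11 lower in VSG against Sham-WM. Hspa13, another ER Hsp70, had log2 fold changes of 0.80 and -1.08 in these comparisons (adjusted p = 0.0129 and 0.00132, edgeR), and Ssr2, a partner of Ssr1, had 0.60 and -0.60 (adjusted p = 0.00476 and 0.00199). Of 16 other degradation genes, 2 were higher after Sham-WM, and 1 was higher and 2 lower in VSG against Sham-WM, among them Edem3 at -0.65 (adjusted p = 0.00669), so that the lower share was near that of all genes. Of 18 tested stress transducers, Atf6b was higher after Sham-WM (0.81, adjusted p = 0.0169) and Wfs1 lower in VSG against Sham-WM (-0.65, adjusted p = 0.00574).

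Among 19 other tested ATF4 targets, 0 were higher and 1 lower in Sham-WM against Sham-Ad lib. In VSG against Sham-WM, 2 were higher and 1 lower, and both shares were below those of all genes. Eif4ebp1, the translation repressor 4E-BP1, was called in the same directions as Trib3. It was lower in Sham-WM than in Sham-Ad lib (log2 fold change -0.68, SE 0.14, adjusted p = 0.0129, edgeR) and higher in VSG than in Sham-WM (1.08, SE 0.14, adjusted p = 0.000546). Pck2, the mitochondrial phosphoenolpyruvate carboxykinase, was also higher in VSG than in Sham-WM (0.82, adjusted p = 0.0187) and the tRNA exporter Xpot lower (-0.55, adjusted p = 0.00645). Of the 20 cytosolic aminoacyl-tRNA synthetases on the list, many of them ATF4 targets too, 6 were higher and 0 lower after Sham-WM, and 1 was higher and 5 lower in VSG against Sham-WM. Tars, the threonyl-tRNA synthetase, had 0.96 and -1.31 (adjusted p = 0.00928 and 0.000897). In VSG against Sham-Ad lib, 0 genes of these 5 lists were called with edgeR, beside 0.467% of all genes higher and 0.283% lower.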

How the data were processed

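The deposited table holds whole-number counts per Ensembl gene for 12 libraries, which the authors made by aligning paired reads to mm10 with TopHat2 2.1.1 and counting with featureCounts, and did not normalize. Neither the annotation nor the strand setting was given in the sources used here. All 12 columns were used. Libraries were grouped by animal number, since a second label field pairs titles and libraries otherwise. Group means were fitted to all 12 libraries in edgeR 4.0.16 (R 4.3.3) with TMM factors after filterByExpr (minimum count 10, minimum total 15), compared by the quasi-likelihood test, and adjusted by the Benjamini-Hochberg method over 13054 genes at 0.05. Alternatives were DESeq2 1.42.0, RLE and upper quartile factors, other filters, 2 RUVr or RUVs factors written out from their definitions, fits of 2 groups, grouping by the other label field, and leaving out each library. The fit without libraries 1F and 8F was chosen after seeing the data. The members and lists were chosen with earlier results of these data known. Values in every library are given for Hspa5, Xbp1, Atf4, Ddit3, Trib3 and Asns and for up to 6 called members per branch and comparison with the smallest adjusted p; other members were named after their values were seen. Promoter sequences are RefSeq's for GRCm38.p6. The edgeR fit was also run on simulated counts with changes planted in the VSG group only, and no result above rests on that run. Each library is 1 mouse, and counts carry no molecular identifiers.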

Additional observations from a re-analysis of the deposited data

Results flagged for a closer look

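In 5 of 120 groups of 4 libraries, 1 library stood apart from the other 3 by Dixon's test at the 95% level, where chance gives about 1 in 20. Dnajb9 was low in Sham-WM library 9F, at 45.2 CPM against 66.7 to 71.3 CPM in the others. Dnajc3 was high in VSG library 8F, at 354 CPM against 241 to 249 CPM, and it was called lower in VSG than in Sham-WM where 8F was left out (log2 fold change -0.39, edgeR adjusted p = 0.0218) and where both 1F and 8F were (-0.42, adjusted p = 0.0469), and in no other setting run. Creld2 was high in Sham-Ad lib library 4F, at 23.3 CPM against 15.6 to 16.5 CPM. Canx was high in Sham-Ad lib library 3F, at 437 CPM against 403 to 408 CPM. Chac1 was high in VSG library 18F, at 14.0 CPM against 4.84 to 5.67 CPM.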

How the results depend on the processing

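Of the 40 members, edgeR called 0 in VSG against Sham-Ad lib, and this count was 2 with DESeq2, 1 with no filter on low counts, 8 with 2 RUVr factors, and 0 to 3 with 1 library left out (3 without 18F or 4F, 1 without 8F, 0 without any other). Sel1l was among those called in each case where the count was above 0. The 7 members called in Sham-WM against Sham-Ad lib became 10 with DESeq2, 13 with 2 RUVr factors, 13 with 2 RUVs factors, 0 when grouped by the other label field, and 6 to 9 with 1 library left out. The 16 in VSG against Sham-WM became 19 with DESeq2, 7 with 2 RUVs factors, 0 when grouped by the other label field, 10 without both 1F and 8F, and 11 (without 16F) to 18 (without 18F) with 1 library left out. Without 16F, 1 ATF4 branch member was higher in place of 4, and without 15F or 1F there were 2. The one called value that turned was Sdf2l1 in VSG against Sham-WM, at -0.17 with 2 RUVs factors (adjusted p = 0.841), with which Derl3, Asns and Nupr1 were at 1.41, 0.64 and 0.24 (adjusted p = 0.554, 0.874 and 0.82). Manf, Canx, Sel1l, Syvn1, Edem1 and Chac1 also lost their calls with these factors (adjusted p = 0.0581, 0.30, 0.382, 0.20, 0.0765 and 0.21). Over all genes, edgeR and DESeq2 called 98 and 1227 in VSG against Sham-Ad lib and 912 and 1404 in Sham-WM against Sham-Ad lib. The cause of this difference was not tested. Beyond the main fit, shares of all genes called are given only for DESeq2 against Sham-Ad lib and for the fit without 1F and 8F. With the other settings, a change in the member count is not set beside calls over all genes here and is no result about the members alone. No paired analysis was possible because the groups share no replicate numbers. With 4 mice per group and no molecular identifiers, low members such as Asns, Psat1 and Phgdh carry the widest errors.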
